A study of Homo sapiens with 4 samples.

Results

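The genes examined here encode the proteins of the cytosolic ribosome, and their RNA levels were read from RNA-seq of untreated HaCaT cells. Members were taken by name: protein-coding genes on an autosome or the X chromosome with an RPL or RPS symbol and a number, plus RPSA, RPLP0, RPLP1 and RPLP2, without the RPS6K kinases and without Y-linked copies. This gave 84 genes among the 44591 annotated in the files and the 19233 called protein-coding. The large subunit had 52 members and the small subunit 32. Of the 84 members, 7 are paralogs named after another member (RPL3L, RPL7L1, RPL10L, RPL22L1, RPL26L1, RPL39L and RPS27L), which leaves 77, 46 of the large and 31 of the small subunit. The rule used names and positions but no measured value, and it left out FAU and RACK1, which also supply ribosomal proteins, and RPL36AL.

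A ribosome is built from a small subunit, which holds and decodes the mRNA, and a large subunit, which joins the amino acids. Each subunit is an rRNA core that binds one copy of most of its proteins, so a cell that makes ribosomes needs these proteins in near-equal numbers. Many of their mRNAs begin with an oligopyrimidine tract, a C followed by a run of C and U bases, through which mTOR signalling controls their translation as a group.

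HaCaT is an immortalized line of human epidermal keratinocytes, here without any treatment, and the study sequenced it in 4 biological repeats to rank the sirtuin genes. The labels give 12% fetal bovine serum in the medium and the methods of the study 10%. All 4 libraries belong to one group and there was no control, so every comparison was between genes, between sets of genes or between replicates.

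Replicate 1 had a total count of 73082279, and replicates 2 to 4 had 17056035 to 19745170. Protein-coding genes held 76.1% of the counts in replicate 1 and 95.3% to 96.4% in replicates 2 to 4. Replicate 1 also stood apart in the order of genes: Spearman's rho over the 12165 protein-coding genes with a mean TPM above 1 was 0.75 to 0.78 with it and 0.94 to 0.97 among the others. The cell identity was checked by markers, and all 10 keratinocyte markers were above a mean of 1 TPM, with a summed level of 14257 to 20063 TPM. Summed fibroblast markers reached 5.20 to 9.70 TPM (2 of 7 with a mean above 1), leukocyte markers 3.51 to 8.92 TPM (1 of 5) and melanocyte markers 3.74 to 9.12 TPM (2 of 5, TYR at 0).

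Ribosomal protein genes held a large and variable part of the mRNA. TPM, the count per base of gene length scaled to a fixed total, was computed over protein-coding genes for each replicate. From the first replicate to the last, the 84 genes held 17.5%, 12.8%, 19.5% and 11.8% of all TPM (15.4% ± 3.72, SD, n = 4). On this scale replicates 1 and 3 were high and replicates 2 and 4 were low. With TPM over all annotated genes, of which protein-coding genes made up a smaller part in replicate 1, the shares were 5.43%, 11.3%, 17.1% and 10.9%, and replicate 1 was the lowest. On the first scale and without replicate 1, the share was 14.7% ± 4.21 (SD, n = 3). As a share of protein-coding read counts, without length correction, the values were 6.61%, 4.67%, 8.19% and 4.32%, in the same order. These genes are short, with a median deposited length of 887 bases over the 77 members without paralogs against 3276 bases over the 12165 genes, so their share of reads was smaller than their share of TPM. The 7 paralogs together held 0.0336% ± 0.00737 of TPM (SD, n = 4). For scale, 78 genes of the mitochondrial ribosome held 0.791%, 0.827%, 1.09% and 0.704% of TPM.

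**Figure D1:**
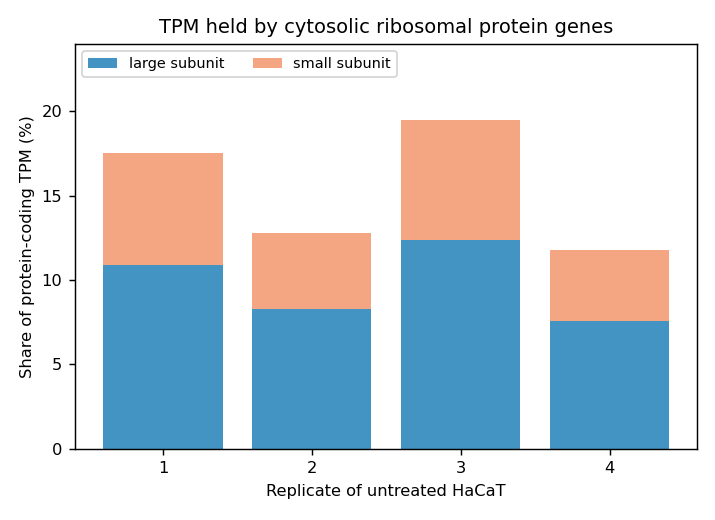
Share of protein-coding TPM (%) held by the 84 ribosomal protein genes in each of the 4 replicates of untreated HaCaT, with the large subunit (blue) below the small subunit (orange). The bars reach 17.5%, 12.8%, 19.5% and 11.8%, and the large subunit fills the larger part of each.

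A median member stood at 1765, 1407, 2028 and 1235 TPM in replicates 1 to 4, where the median of the 12165 genes was 22.6, 24.3, 18.4 and 24.3 TPM. Members took 45, 42, 52 and 41 of the 100 places at the top of the protein-coding genes in replicates 1 to 4. Of the 77 members without paralogs, 71 were above percentile 95 in every replicate, and 74 were in replicates 2 to 4. Levels of 82 members passed a mean of 1 TPM, and the 2 that did not were RPL3L and RPL10L. The genes were spread over 21 chromosomes, with the most, 12, on chromosome 19. In the annotation, 3 members overlap another protein-coding gene on their strand and 14 overlap a gene on the other strand, and since the strand setting of the counting is not given, reads of these could not be assigned with certainty.

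The annotated starts of these genes were searched for the oligopyrimidine tract, a known feature of the family. An annotated RefSeq start (GRCh38.p14) was at hand for 67 of the 84 members. At 47 of the 67 (70.1%), at least 1 annotated start was a C followed by at least 4 more C or T bases on the transcribed strand, and the same held for 975 of 15258 protein-coding genes (6.39%). Some genes have several starts, and counted by start the tract was at 47 of 83 (56.6%) of the members' and 4.62% of all. The large subunit had 29 of 42 and the small subunit 18 of 25. Among mitochondrial ribosomal protein genes, 6 of 70 (8.57%) had such a start. Among other translation genes it was 12 of 15 (80%), on a list given below that includes genes with a known oligopyrimidine start. With the C allowed within 5 bases of the annotated start, the shares were 80.6% of members and 28.4% of all genes. The run of pyrimidines had a median length of 8 bases at the 47 starts, from 5 to the 15 bases that were read.

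The windows printed here run from 15 bases before the start to 15 bases from it, 5′ to 3′ on the transcribed strand, with the pyrimidine run from the first transcribed base in capitals. The first 4 belong to members with the highest mean levels (RPS2, also among the 5 highest, had no entry), RPS3 had the smallest spread over the 4 replicates, RPS15 is a member without the run, and the rest are parent genes and their paralogs.
RPL35, chr9:124861943-124861972, minus strand: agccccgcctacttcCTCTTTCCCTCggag
RPLP1, chr15:69452803-69452832, plus strand: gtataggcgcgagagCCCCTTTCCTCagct
RPL7A, chr9:133348203-133348232, plus strand: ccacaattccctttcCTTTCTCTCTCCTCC
RPS18, chr6:33272060-33272089, plus strand: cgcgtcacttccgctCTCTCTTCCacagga
RPS3, chr11:75399503-75399532, plus strand: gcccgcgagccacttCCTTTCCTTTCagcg
RPS15, chr19:1438381-1438410, plus strand: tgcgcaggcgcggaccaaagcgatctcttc
RPS27, chr1:153990747-153990776, plus strand: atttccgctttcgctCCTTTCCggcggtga
RPS27L, chr15:63157463-63157492, minus strand: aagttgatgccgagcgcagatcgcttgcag
RPL22, chr1:6199581-6199610, minus strand: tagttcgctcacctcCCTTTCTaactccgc
RPL22L1, chr3:170870181-170870210, minus strand: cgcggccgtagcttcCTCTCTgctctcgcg
RPL26, chr17:8383179-8383208, minus strand: aagcagcgtgtagttCTCTTCCCTTTTgcg
RPL7L1, chr6:42879601-42879630, plus strand: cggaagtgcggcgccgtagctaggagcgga
Of the 5 paralogs with an entry, RPL22L1 was the 1 that began with the run. The letters are a description of the annotated start, and no transcript start was measured here.

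The 5 members with the highest mean came from both subunits. RPL35 (gene ID 11224), a large subunit protein near the exit of the peptide tunnel, averaged 6654 ± 2313 TPM (SD, n = 4), from 8392, 5484, 8768 and 3972 TPM in replicates 1 to 4. RPLP1 (gene ID 6176), an acidic protein of the stalk that recruits elongation factors, had 3398, 6631, 10211 and 6244 TPM, a mean of 6621 ± 2794. The order of the 2 turned with the replicate, since RPL35 was the higher in replicate 1 and RPLP1 in replicates 2 to 4. RPL7A of the large subunit followed at 5550 ± 1232 TPM, RPS2, which lines the mRNA entry of the small subunit, at 4664 ± 2300 and RPS18, a protein of the small subunit head, at 4319 ± 1639 (SD, n = 4 each). RPS2 was lowest in replicate 1 at 2690 TPM and highest in replicate 3 at 7721, while RPS18 was highest in replicate 1 at 6408 TPM. Neighbours in the ranking were hard to tell apart: for 5 of the 76 neighbouring pairs among the 77 members, the order of the means held in all 4 replicates, and with means over replicates 2 to 4 it held in all 3 for 7 pairs.

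**Figure D2:**
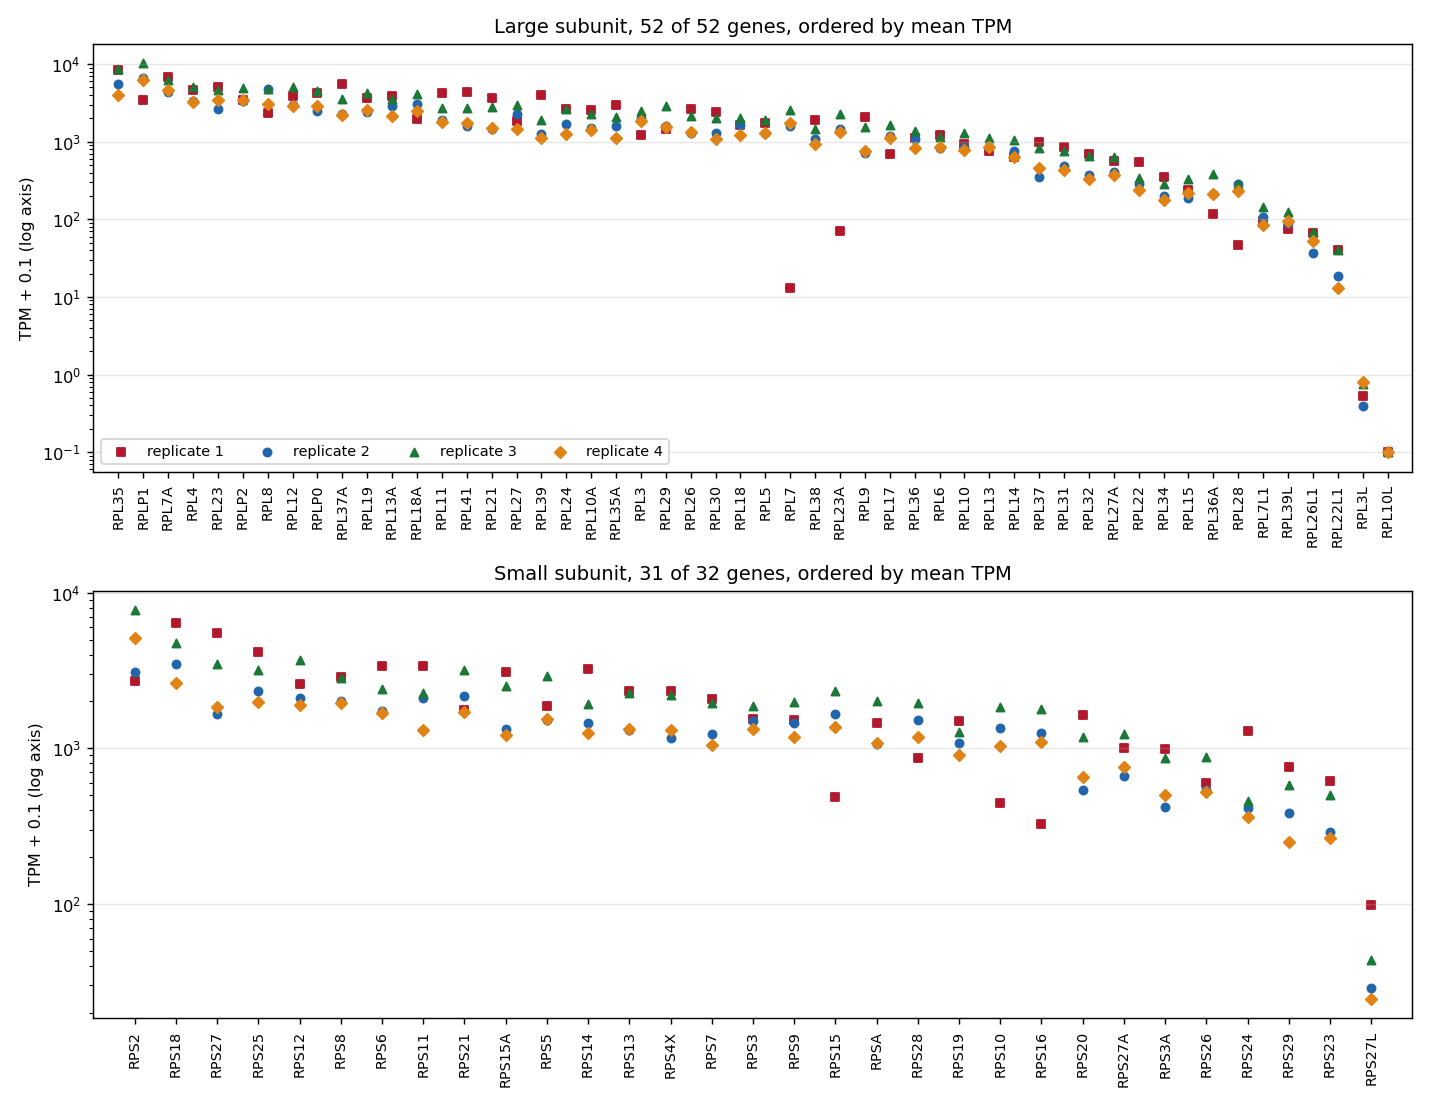
TPM + 0.1 on a log axis for the 52 large subunit genes (upper panel) and 31 of the 32 small subunit genes (lower panel, 1 gene not reported here), each ordered by mean TPM, with one point per replicate. Members without paralogs range over 35.1- to 35.7-fold in replicates 2 to 4. RPL7 and RPL23A drop in replicate 1 to 12.8 and 70.6 TPM, and the paralogs, RPS27L among the small subunit genes, sit at the right ends.

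At the other end of the 77 were RPL28 at 213 ± 113 TPM and RPL36A at 231 ± 114 (SD, n = 4). Without replicate 1 the lowest were RPL34 at 221 ± 59.3 TPM and RPL15 at 246 ± 78.1, followed by RPL28 at 268 ± 30.1 and RPL36A at 270 ± 102 (SD, n = 3), the first 2 named after their values were seen. The 10th and 90th percentiles of the 77 lay 9.20-, 8.09-, 7.80- and 8.47-fold apart in replicates 1 to 4. From the lowest to the highest member the range was 654-fold in replicate 1, where RPL7 was the lowest, and 35.1- to 35.7-fold in the others. Over the 82 members above 1 TPM, paralogs included, the SD of log2(TPM + 1) among genes was 1.68 ± 0.15 (SD over n = 4).

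Part of this range went with the gene length used for TPM. Over the 77 members, Pearson's r between log2 TPM and log2 deposited length was −0.51, −0.66, −0.67 and −0.62 in replicates 1 to 4, a correlation across genes, which are not independent replicates. Length enters the calculation of TPM itself. Before length correction, Spearman's rho of count with length was 0.11 to 0.26, and the SD of log2 counts was 1.43, 0.89, 0.86 and 0.92 where that of log2 TPM was 1.64, 1.15, 1.14 and 1.14. Coding sequences of the same genes have a median of 471 bases in GENCODE release 29, and for 10 members the deposited length was over 5 times the coding length. RPL28, with 5185 deposited and 510 coding bases, ranked 75 of 77 by mean TPM over replicates 2 to 4 but 21, 51 and 31 by count in these replicates. RPL13, with 4726 and 633 bases, ranked 59 by TPM but 4, 6 and 4 by count. RPL27A, with 4879 and 444 bases and chosen after its values were seen, ranked 68 by TPM and 16 by count in each of the 3 replicates. Others of the 10 were low on both scales, such as RPL36A, which ranked 74 by TPM and 68, 66 and 68 by count, and RPL22, which ranked 73 by TPM and 70, 74 and 71 by count. RPL41 went the other way, ranking 26 by TPM and 50, 45 and 41 by count.

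**Figure D3:**
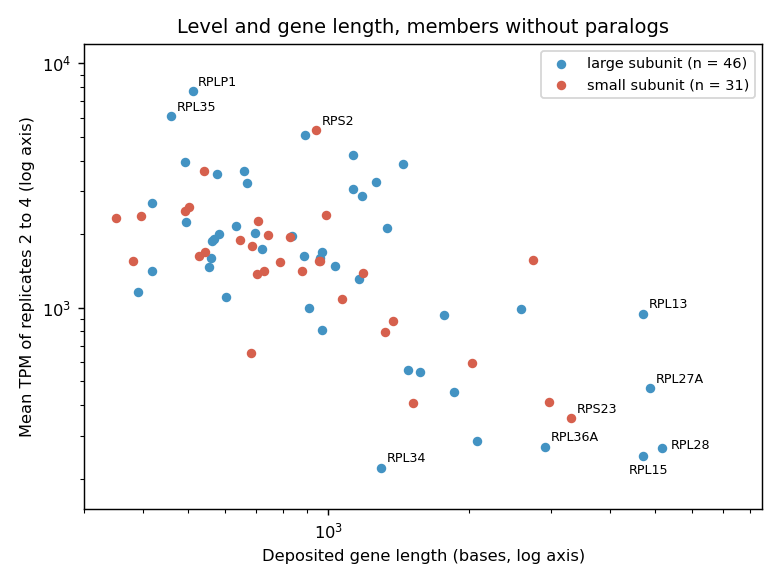
Mean TPM of replicates 2 to 4 against the deposited gene length, both on log axes, for the 46 large (blue) and 31 small (red) subunit members without paralogs. Levels decline with length, and the 4 longest genes, RPL13, RPL15, RPL27A and RPL28, lie in the lower right part of the plot.

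Per gene, the medians of the subunits lay close together. The median of the large subunit differed from that of the small subunit by −0.00, −0.11, 0.02 and −0.09 on the log2 scale of TPM in replicates 1 to 4, which averaged −0.04 ± 0.06 (SD, n = 4, p = 0.375, two-sided exact sign-flip permutation test). With 4 replicates this test cannot go below 0.125, so it could not have reached 0.05. Without paralogs, 6 of which belong to the large subunit, the difference changed sign, to 0.13, 0.03, 0.14 and 0.06, a mean of 0.09 ± 0.05 (SD, n = 4, exact p = 0.125 by the same permutation test). Summed over genes, the large subunit held 1.64, 1.83, 1.73 and 1.80 times the TPM of the small subunit (1.75 ± 0.0872, SD, n = 4). The large subunit has more genes, and its mean TPM per gene was also higher. The mean TPM per gene without paralogs was 1.10-, 1.23-, 1.16- and 1.21-fold that of the small subunit, higher in 4 of 4 replicates (1.18 ± 0.0579, SD, n = 4).

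Among proteins of the stalk, RPLP0, the scaffold that anchors it, had 4200, 2506, 4480 and 2866 TPM, a mean of 3513 ± 973 (SD, n = 4). RPLP2, the partner of RPLP1 on the stalk, had 3417, 3389, 4932 and 3493 TPM. Replicate 3 stood above the others, which lay between 3389 and 3493 TPM. RPLP2 was among the 5 members with the smallest spread over replicates (SD of log2(TPM + 1) 0.26), after RPS3 at 0.20 and RPL13 at 0.24 and before RPL5 and RPL6 at 0.29 each. The median over the 82 members was 0.49. Over replicates 2 to 4 the smallest spreads were those of RPL28 at 0.17 and RPS24 at 0.17, both of which stood apart in replicate 1.

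RPL5 and RPL11, which carry the 5S rRNA into the large subunit and bind MDM2 when ribosome assembly fails, had 1558 ± 311 and 2686 ± 1142 TPM (SD, n = 4 each). RPL11 was high in replicate 1 at 4281 TPM against 1798 to 2739 in the others, whereas RPL5 lay between 1284 and 1882 TPM in all 4. RPS6, the small subunit protein phosphorylated downstream of mTOR, had 3360, 1730, 2403 and 1691 TPM. RPS3, at the mRNA entry and also studied as a DNA repair protein, had 1552, 1503, 1864 and 1326 TPM. RPS27A, made as a fusion with ubiquitin, had 1005, 666, 1236 and 758 TPM. RPL41, the smallest of these proteins with 75 coding bases, had 4420, 1596, 2687 and 1744 TPM. RPS6 and RPL41 were highest in replicate 1, RPS3 and RPS27A in replicate 3.

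The loss of a copy of some members causes Diamond-Blackfan anaemia, a failure of red cell production, and 8 such genes spanned 633 to 2686 TPM with a median of 1374. RPL11 was the highest of the 8 and RPS24 the lowest at 633 ± 445 TPM (SD, n = 4). Apart from RPL5, in between lay RPL35A at 1931 ± 781, RPS7 at 1583 ± 513, RPS19 at 1189 ± 249, RPS10 at 1171 ± 588 and RPS26 at 637 ± 168 TPM. RPS24 had a replicate 1 far above the rest, with 1298, 416, 459 and 361 TPM. Its deposited length was 2960 bases.

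Paralogs were compared with their parent genes in 8 pairs, 7 from the members and RPL36A with RPL36AL, a retrocopy that the name rule left out. The difference in log2(TPM + 1), parent minus paralog, was tested within replicates by a two-sided exact sign-flip permutation test, with a smallest possible p of 0.125, so that none of the 8 pairs could pass 0.05. In 6 pairs the parent was higher in each of 4 replicates (exact p = 0.125 for each). The exceptions were RPL7 with RPL7L1, where replicate 1 went the other way, and RPL36A with RPL36AL, where the paralog was higher in 4 of 4. Ratios per kilobase of deposited length are given below, some of them followed in brackets by a 95% Clopper-Pearson interval for counting error.

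**Figure D4:**
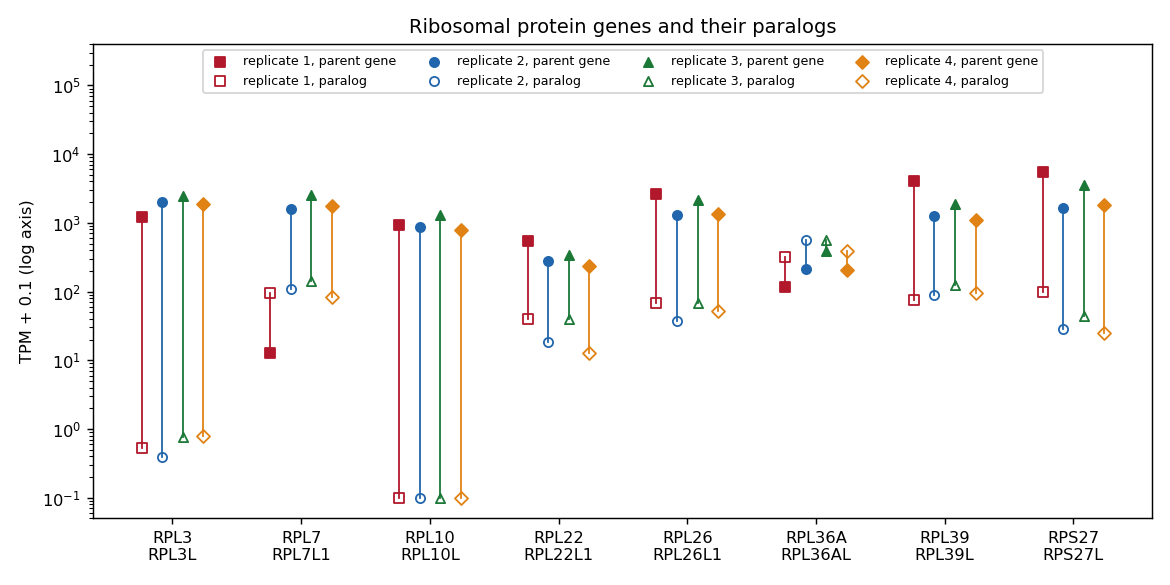
TPM + 0.1 on a log axis of 8 parent genes (filled) and their paralogs (open), with one line per replicate joining the 2. RPL10L sits at the floor of the plot because it has no reads, RPL7 lies below RPL7L1 in replicate 1, and RPL36A lies below RPL36AL in each replicate.

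The tissue-restricted paralogs were at or near the limit of detection. RPL10L, a copy used in the male germ line, had 0 counts in all 4 libraries, which for its length allows up to 0.152, 0.555, 0.411 and 0.495 TPM at 3 counts a library. RPL10 was at least 6132-, 1547-, 3198- and 1597-fold higher per kilobase. RPL3L, which takes the place of RPL3 in heart and skeletal muscle, had 16, 3, 9 and 8 counts. In replicate 2, with the 3 counts, RPL3 was 6805-fold higher per kilobase (interval 2328 to 33003). In the deepest library the ratio was 2806 (1728 to 4910). The log2 difference of RPL3 and RPL3L was 10.24 ± 0.41 (SD, n = 4), and it understates the fold because RPL3L lies below the pseudocount of 1.

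RPL39L, also known from the male germ line, was expressed here at 75.4, 88.6, 124 and 93.7 TPM. RPL39, its parent in the wall of the peptide tunnel, had 4008, 1245, 1891 and 1106 TPM. The ratio per kilobase was 53.2 (50.3 to 56.2) in replicate 1 and 14.1, 15.3 and 11.8 in replicates 2 to 4, so the log2 difference of 4.25 ± 0.99 (SD, n = 4) fell to 3.76 ± 0.19 (n = 3) without replicate 1. RPL39 is at chrX:118920467-118925622 and RPL39L at chr3:186838741-186857263, both on the minus strand (hg19 by the submitters' notes). Their coding sequences are printed because they show what a read has to separate: 8 of 156 bases differ (94.9% identity), given in capitals, and the longest identical stretch is 44 bases.
RPL39 coding sequence, GENCODE release 29: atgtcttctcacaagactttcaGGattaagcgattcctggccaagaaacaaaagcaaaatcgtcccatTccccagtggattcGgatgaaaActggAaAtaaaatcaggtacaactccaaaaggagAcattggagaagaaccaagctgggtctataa
RPL39L coding sequence, GENCODE release 29: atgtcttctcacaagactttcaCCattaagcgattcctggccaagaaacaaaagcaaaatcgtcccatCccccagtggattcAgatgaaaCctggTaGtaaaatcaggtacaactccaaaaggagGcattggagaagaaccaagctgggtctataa
No stretch of 50 bases in these coding sequences is the same in both genes, while over whole transcripts 36.6% of the 50-base stretches of RPL39 and 2.98% of those of RPL39L also occur in another annotated gene. How the counting treated reads that match several genes is not given in the sources used here, so values of near-identical copies are uncertain.

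RPS27L, known as a target of p53, had 98.9, 28.6, 43.5 and 24.5 TPM and RPS27 5498, 1652, 3502 and 1835. Both were highest in replicate 1, so the ratio per kilobase stayed within 55.6 to 80.5 and the log2 difference was 6.01 ± 0.26 (SD, n = 4). The coding sequences of this pair differ at 56 of 255 bases (78.0% identity). RPL26L1 had 67.5, 37.1, 67.7 and 52.3 TPM, and RPL26 was 5.00 ± 0.26 higher on the log2 scale. RPL22L1 had 39.6, 18.5, 39.7 and 12.8 TPM, high in replicates 1 and 3 and low in 2 and 4. RPL22 was 13.6-, 15.2-, 8.51- and 18.6-fold higher per kilobase, lowest in replicate 3. The log2 difference of RPL22 and RPL22L1 was 3.69 ± 0.45 (SD, n = 4).

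RPL7L1, a homolog of a yeast ribosome assembly factor, had 94.0, 108, 144 and 83.4 TPM. RPL7 had 12.8, 1603, 2555 and 1742 TPM, so that the log2 difference was −2.78 in replicate 1 and 4.13 ± 0.24 (SD, n = 3) in the others. Over all 4 replicates the mean was 2.40 ± 3.46 (SD, n = 4, exact permutation p = 0.25). RPL36AL had 313, 555, 569 and 390 TPM against 116, 212, 388 and 209 for RPL36A, a log2 difference of −1.07 ± 0.42 (SD, n = 4, exact permutation p = 0.125). This direction rested on the length: RPL36A has a deposited length of 2911 and RPL36AL of 577 bases, and by counts alone RPL36A had 8181, 4102, 10140 and 4535 against 4395, 2130, 2950 and 1677. With the longest annotated coding lengths, 426 bases for RPL36A and 318 for RPL36AL, RPL36A was 0.84 ± 0.42 higher on the log2 scale. Another annotated coding sequence of RPL36A is as long as that of RPL36AL, 321 bases each with the stop codon.

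In replicate 1, a few members departed from the other replicates. Of the 82 members above 1 TPM, 6 were at least 2-fold below each of the other replicates, against 16.3% of the 12165 genes. These were RPL7, RPL23A, RPL28, RPS10, RPS15 and RPS16, 3 of 50 in the large and 3 of 32 in the small subunit, or 7.32% of the members. At least 2-fold above each of the others were 3 members, RPL39, RPS24 and RPS27L (3.66%), against 10.9% of all genes. Both shares of members lay below those of all genes. Set against replicates 2 and 4 alone, without replicate 3, 15 members were above (18.3%), against 11.7% of all genes. With TPM over all annotated genes none of the 82 was above, against 1.70% of all genes, and 36 were below (43.9%), against 54.5%.

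RPL7 had 261 counts in replicate 1, the deepest library, and 8921, 19223 and 10864 in replicates 2 to 4, 125-fold below the lowest of the others in TPM. RPL23A, which lies at the tunnel exit and binds the signal recognition particle, had 1663 counts and 70.6 TPM in replicate 1 against 1319 to 2299 TPM, 18.7-fold below the lowest of the others. The remaining 4 were less extreme: RPL28 had 47.1 TPM against 233 to 286, RPS16 328 against 1094 to 1783, RPS15 489 against 1363 to 2339 and RPS10 446 against 1034 to 1847. RPS10 shares its place with an annotated readthrough gene, RPS10-NUDT3, which had 0 counts in replicate 1 and 7291, 11656 and 5722 in the others. The same held for RPL17-C18orf32 (8 against 7196, 12673 and 6848 counts) and RPL36A-HNRNPH2 (2 against 4437, 8705 and 4771), which overlap RPL17 and RPL36A and, like RPL17, were named after their values were seen. Whether the replicates were counted in the same way is not given in the sources used here, and its part in these differences was not tested. RPL7 and RPL23A overlap no other coding gene on their strand, but RPL23A overlaps 2 genes on the other strand and holds 4 snoRNA genes.

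Near-identical copies exist for many of these genes. Of the 50-base stretches in RPL7 and RPL23A, 66.2% and 54.5% also occur in another annotated gene, as do 66.2% in RPL7A and 69.4% in RPS2. Over the 82 members, Spearman's rho of the replicate 1 deviation with this share was −0.12. It was −0.45 with the GC content of the transcript and −0.09 with length, across genes that share the same 4 libraries. The 44 RPL7 pseudogenes of the annotation held 34, 193, 121 and 75 counts in replicates 1 to 4, against 261 to 19223 counts for RPL7 itself. The 27 RPL23A pseudogenes held 1205, 597, 635 and 479 counts, in replicate 1 not far below the 1663 of RPL23A and in the others far below its 9531 to 20043. How reads matching several genes were assigned, and its part in these differences, was not tested. All 1237 ribosomal protein pseudogenes together held 1.42% to 1.81% of the counts of the members.

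The middle of the members lay higher in replicate 1. Replicate 1 minus the mean of replicates 2 to 4, in log2(TPM + 1), had a median of 0.40 over the 82 members. Of these members, 56 were above 0, and the interquartile range was 1.01. Over all 12165 genes the median was 0.03, with 6218 above 0 and an interquartile range of 1.53. For the large subunit the median was 0.36 and for the small subunit 0.58. The direction depends on the scale: with TPM over all annotated genes, of which protein-coding genes held 31.0% in replicate 1 and 87.4% to 93.0% in the others, the median of the members was −1.11 and that of the 12165 genes −1.27. Relative to all genes, the members were 0.37 higher on the first scale and 0.17 higher on the second. Within the span of 28 members lie 57 annotated snoRNA genes, counted apart from their hosts. These 57 had 18466 counts in replicate 1 and 455, 411 and 227 in the others. The 2 within RPS3 alone held 10857 of the counts in replicate 1 and 4, 15 and 6 in the others. The part of the 57 snoRNA genes in the difference between the scales was not tested.

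**Figure D5:**
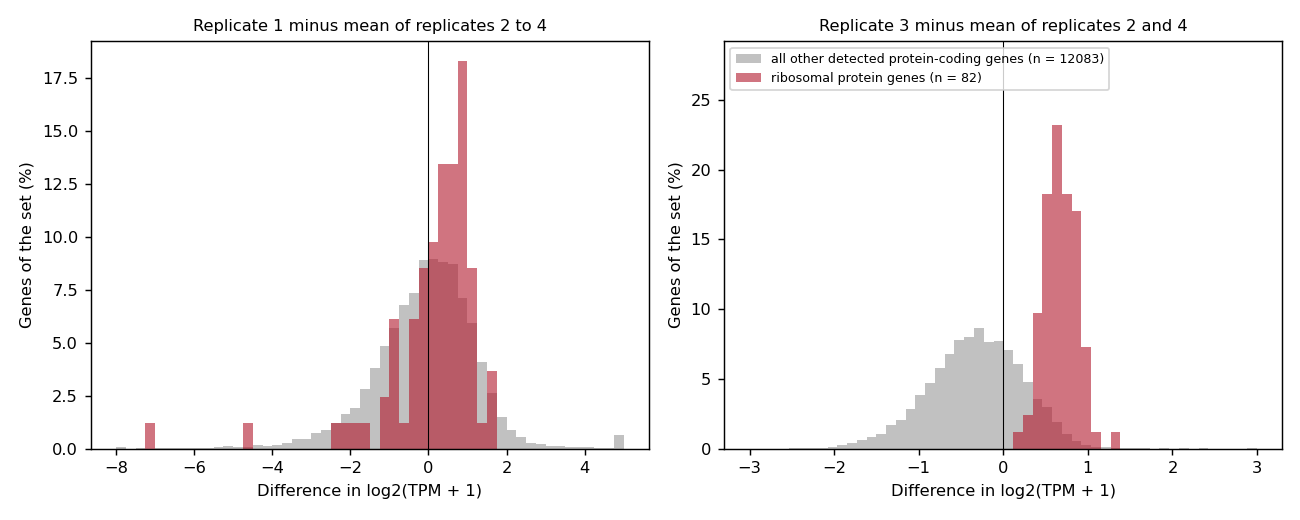
Distribution of the difference in log2(TPM + 1) of replicate 1 from the mean of replicates 2 to 4 (left) and of replicate 3 from the mean of replicates 2 and 4 (right), as the percentage of genes in each set, for 82 ribosomal protein genes (red) and the other protein-coding genes with a mean above 1 TPM (grey). The outermost bars also hold values beyond the axis. On the left the sets overlap around 0 with RPL7 and RPL23A far to the left, and on the right all 82 members lie above 0 while most other genes lie below.

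The members moved as one block in replicate 3. All 82 members above 1 TPM were higher in replicate 3 than in replicates 2 and 4, 50 of 50 in the large and 32 of 32 in the small subunit, against 20.1% of the 12165 genes. None was highest in replicate 2, where 36.1% of all genes were, or in replicate 4, where 43.8% were. None was lowest in replicate 3, where 60.0% of all genes were. Replicates 2 and 4 shared the lowest place, with 25 members lowest in replicate 2 (30.5%, against 15.2% of all genes) and 57 in replicate 4 (69.5%, against 24.7%).

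The size of the shift was narrow. The difference of replicate 3 from the mean of replicates 2 and 4 had a median of 0.67 on the log2 scale, or 1.59-fold, with an interquartile range of 0.28 over the 82 members. Over all 12165 genes the median was −0.30 and the interquartile range 0.75. The smallest shift was that of RPL28 (0.15), whose 286 TPM in replicate 3 barely passed the 285 in replicate 2, and the next was RPS24 (0.25). The largest was that of RPL22L1 (1.31), followed by RPL9 (1.07), which was named after its values were seen. The medians were 0.65 for the large and 0.73 for the small subunit. Replicate 4 differed from replicate 2 by a median of −0.12 over the members and 0.01 over all genes.

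The count was repeated under other scalings. With read counts without length correction, with upper quartile scaling, and with TPM over the protein-coding genes other than members, the count was again 82 of 82, and with TPM over all annotated genes it was 80. Scaling changes all genes of a library by one factor, so apart from the pseudocount it cannot alter the gap between the medians of the members and of all genes, which was 0.97 on the log2 scale. The share of all genes highest in replicate 3 ranged from 17.6% to 32.7% over the scalings. Replicates 2 to 4 kept the order of the members, with Spearman's rho of 0.97 to 0.98 among them. With replicate 1 it was 0.77 to 0.80. Members are not replicates of each other, and the shift is that of a single library. What set replicate 3 apart from replicates 2 and 4 was not tested, and a larger share of these transcripts and a smaller amount of the remaining mRNA cannot be told apart in such data.

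Most other genes of translation were also highest in replicate 3, with smaller median shifts than the members. A list of 22 held elongation and initiation factors, ribosome-associated genes and others with an oligopyrimidine start. Of these, 17 (77.3%) were highest in replicate 3 among replicates 2 to 4, against 20.1% of all genes. The median shift of the 22 was 0.33, and 19 had a shift above 0, against 3568 of the 12165 genes. Among the genes of the mitochondrial ribosome, 68 of 78 (87.2%) were highest in replicate 3, with a median shift of 0.50. FAU, a ubiquitin-like fusion that yields a small subunit protein, had 1752, 1645, 2058 and 1147 TPM. RACK1, a scaffold on the small subunit head, had 2917, 1799, 2337 and 1828 TPM. FAU was highest in replicate 3 and RACK1 in replicate 1.

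EEF1A1, which delivers tRNA to the ribosome, was the highest of the 22 at 5450 ± 2155 TPM (SD, n = 4), within the range of the 5 highest members. It and the genes that follow were named after their values were seen. PABPC1, the poly(A) binding protein, went against the members, with 194, 787, 631 and 1058 TPM and a shift of −0.53 in replicate 3. EIF4A1, a helicase of initiation, was listed at 0 counts in replicate 1 and had 16830, 32148 and 15611 in replicates 2 to 4. In replicate 1, 2 of the 22 (9.09%) were at least 2-fold below every other replicate, against 16.3% of all genes, and 3 (13.6%) at least 2-fold above, against 10.9%.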

How the data were processed

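RNA-seq of untreated HaCaT cells, 4 replicates grouped by their labels, was analysed. The authors deposited raw read counts per gene with a gene length for each replicate, beside RPKM for replicates 1 and 2 and TPM for replicates 3 and 4, and both units were recomputed from the counts within rounding. The submitters' processing notes name hg19, HISAT2, HISAT, TopHat2 and Bowtie2. The counter, the annotation and the strand setting are not given in the sources used here.

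TPM was computed for all 4 replicates over protein-coding genes from the deposited counts and lengths. Genes with a mean TPM above 1 entered the comparisons between replicates, log values used a pseudocount of 1, and 3 counts were taken as the limit of detection. Total counts were 17056035 to 73082279. Without molecular identifiers, reads cannot be counted as separate molecules, so intervals and limits describe counting error alone. The p-values are no measure of the spread between these samples. Where all 4 differences share a sign, the two-sided sign-flip permutation test gives p = 0.125 whatever their spread.

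The members and lists were chosen with earlier results of these data known. Genes named by rule were the 5 highest and 5 lowest by mean, the 5 largest and 5 smallest spreads between replicates, paralog pairs, stalk proteins and genes of known extra roles. Others are marked as chosen later, and some genes of the rule are not reported here. Differences within replicates were tested with exact sign-flip permutation tests. The code for the 2-fold call above was run on simulated counts that held counting noise alone. That run had no spread between libraries and left out the call below, so it does not show how reliable the calls are here. Coding sequences, transcripts and shared 50-base stretches came from GENCODE release 29, with all 84 members matched. Coding lengths were those of the longest annotated coding sequence of a gene. Starts came from RefSeq (GRCh38.p14), with 67 matched. Deposited positions are on hg19 and were not converted. Alternatives were other scalings and lengths, a pseudocount of 0.1, other filters, leaving out paralogs and leaving out each replicate. The software was SciPy 1.17.1, pandas 2.3.3 and NumPy 2.4.6 under Python 3.11.15, with plots by matplotlib 3.10.9.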

Additional observations from a re-analysis of the deposited data

Results flagged for a closer look

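In 67 sets of 4 replicate values (levels of the named genes, shares, subunit and paralog differences), a single replicate was set against the other 3 by the gap to its neighbour over the whole range, at a limit passed by chance in about 1 of 20 sets. It was passed in 3 sets, where chance gives about 3.35. RPLP2 had 4932 TPM in replicate 3 and 3389 to 3493 TPM in the others. RPS24 had 1298 TPM in replicate 1 and 361 to 459 TPM in the others. RPL7 minus RPL7L1 on the log2 scale gave −2.78 in replicate 1 and between 3.89 and 4.37 in replicates 2 to 4.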

How the results depend on the processing

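The results were recomputed under 143 combinations of a result and an alternative, and in 129 the direction was kept or the count or share stayed within its limit. Many of the 129 could not have come out otherwise. Another scaling of a library cannot turn the sign of a difference between its genes, and neither can another pseudocount. Leaving out a replicate cannot turn a sign that all replicates share. The 129 is therefore no measure of how firm the results are. Sizes moved more: RPL7 minus RPL7L1 went from 2.40 to 0.22 by read counts, 0.25 with coding lengths and 4.13 without replicate 1, and RPS27 minus RPS27L from 6.01 to 4.35 by read counts. The members held 15.4% of protein-coding TPM, 11.2% of TPM over all annotated genes and 5.95% of protein-coding read counts. The difference of the subunit medians turned from −0.04 to 0.015 by read counts and to 0.093 without paralogs. With TPM over all annotated genes, 36 members were at least 2-fold below in replicate 1 (54.5% of all genes) and 0 above (1.70%), and the median deviation of replicate 1 turned to −1.11. The count above in replicate 1 was 3 to 15 with 1 replicate left out. The 15 came without replicate 3 (18.3% of the members, against 11.7% of all genes). The spread among members was 1.43 by read counts, 1.31 with GENCODE coding lengths, 1.98 over genes with any count and 1.27 without paralogs. RPL36A exceeded RPL36AL by 1.26 by read counts and by 0.84 with the longest coding lengths. The cause of these changes was not tested, apart from the length and gene sets that the alternatives themselves replace. GENCODE lengths and the comparison of replicate 3 were added after seeing the data. Coding lengths from a RefSeq protein table were planned but not run here. No paired analysis was possible because there is 1 group, so replicate numbers pair no groups. RPL10L at 0 counts and RPL3L at 3 to 16 counts are limited by depth.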
